A study of Mus musculus with 10 samples.

Results

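The 47 transcripts described here encode the machinery of macroautophagy and the MiT/TFE transcription factors. They were taken by gene symbol from a table of 20295 genes: the Atg genes, the Ulk kinases, the LC3 and GABARAP genes, autophagy receptors, accessory factors, and Tfeb, Tfe3 and Mitf. The rule goes by symbol and uses no measured level. All 47 had enough reads to be tested, as had 11229 genes of the table in all. Polyadenylated RNA was sequenced from brown fat from between the shoulder blades (interscapular brown adipose tissue), a tissue that burns fuel for heat, of 10 male C57BL/6JBomTac mice aged 8 weeks. The cold group was 5 mice at 4 °C for 3 days, and the control group was 5 mice that stayed at 22 °C. The treatment tag of the cold samples names room temperature beside 4 °C, and their titles, which say cold, were followed. Mice were caged singly beforehand, ate chow and gave 1 library each. A temperature of 22 °C is below the range in which a mouse needs no extra heat.

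Library totals were 5676963 to 6923932 counts in cold and 4446163 to 5776905 counts in control libraries. The 47 genes took 0.336 to 0.394% of the counts in cold and 0.314 to 0.389% in control libraries, and single members had between 13 and 2412 reads per library. Levels are given as CPM, counts per 1000000 after TMM scaling of library sizes, and as mean ± SD over 5 libraries. Log2 fold changes are of cold over control with their standard error (SE), and gene positions are on mm9. A gene was called higher or lower at an adjusted p under 0.05 in edgeR's quasi-likelihood test, adjusted over all 11229 genes. Summed brown adipocyte markers were at 34935 to 40258 CPM in cold and 24880.0 to 27889 CPM in control libraries. Of these 7 markers 2 were called higher and 1 lower, where 10.2% of all genes tested were higher and 9.14% lower. Ucp1, the heat-producing uncoupling protein, and Elovl3, a fatty acid elongase, rose, Adipoq, the adipokine adiponectin, fell, and Cidea, Plin1, Pparg and Fabp4 were not called. Ucp1 alone was at 18532 ± 852 CPM in cold and 9123 ± 801 CPM in control libraries, so the difference in the sum is largely that of Ucp1. In whole tissue, a change in the number of cells of a type and a change in RNA per cell cannot be told apart.

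Autophagy carries cytoplasm, and chosen cargo such as mitochondria, to the lysosome. The ULK1 kinase complex starts a cup-shaped membrane, a lipid kinase complex around VPS34 (the product of Pik3c3) marks it with PI3P, and ubiquitin-like conjugation attaches the Atg8 proteins (LC3 and GABARAP) to it. Receptors tie cargo to these Atg8 proteins, and tethers bring the closed vesicle to the lysosome. TFEB and its relatives switch on lysosomal and autophagy genes once they are released from the kinase mTORC1 and enter the nucleus. In brown and beige fat, mitophagy is known for clearing mitochondria when a thermogenic stimulus is withdrawn. These steps run on proteins, and RNA levels do not measure the flux through them.

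Most of this machinery showed no called difference after 3 days in the cold. Of 47 members, 4 rose (Ulk1, Rb1cc1, Atg4d and Tecpr1) and 3 fell (Atg101, Atg9a and Sqstm1), by edgeR's quasi-likelihood test. That is 14.9% of the members, where 19.3% of all genes tested were called (10.2% higher and 9.14% lower). The median log2 fold change was 0.041 over the members and -0.020 over all genes tested, with 25 members above 0 and 22 below. No member (0 of 47) differed by 2-fold or more, the largest being Tecpr1 at 1.89-fold. Cold and control libraries did not overlap for 5 members, or 10.6%, where this held for 14% of all genes. Cold lay above in 3 of them (all genes 7.39%) and below in 2 (all genes 6.57%). With control replicate 2 and cold replicate 5 removed, which stood apart from their groups, 2 members rose and 7 fell. In that fit 13.6% of all genes tested were higher and 11.7% lower. Of the 7 called members, Tecpr1, Atg4d and Atg9a kept their call in each of the 20 alternative fits, which changed the scaling, filter, tool or block or left out libraries.

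**Figure D1:**
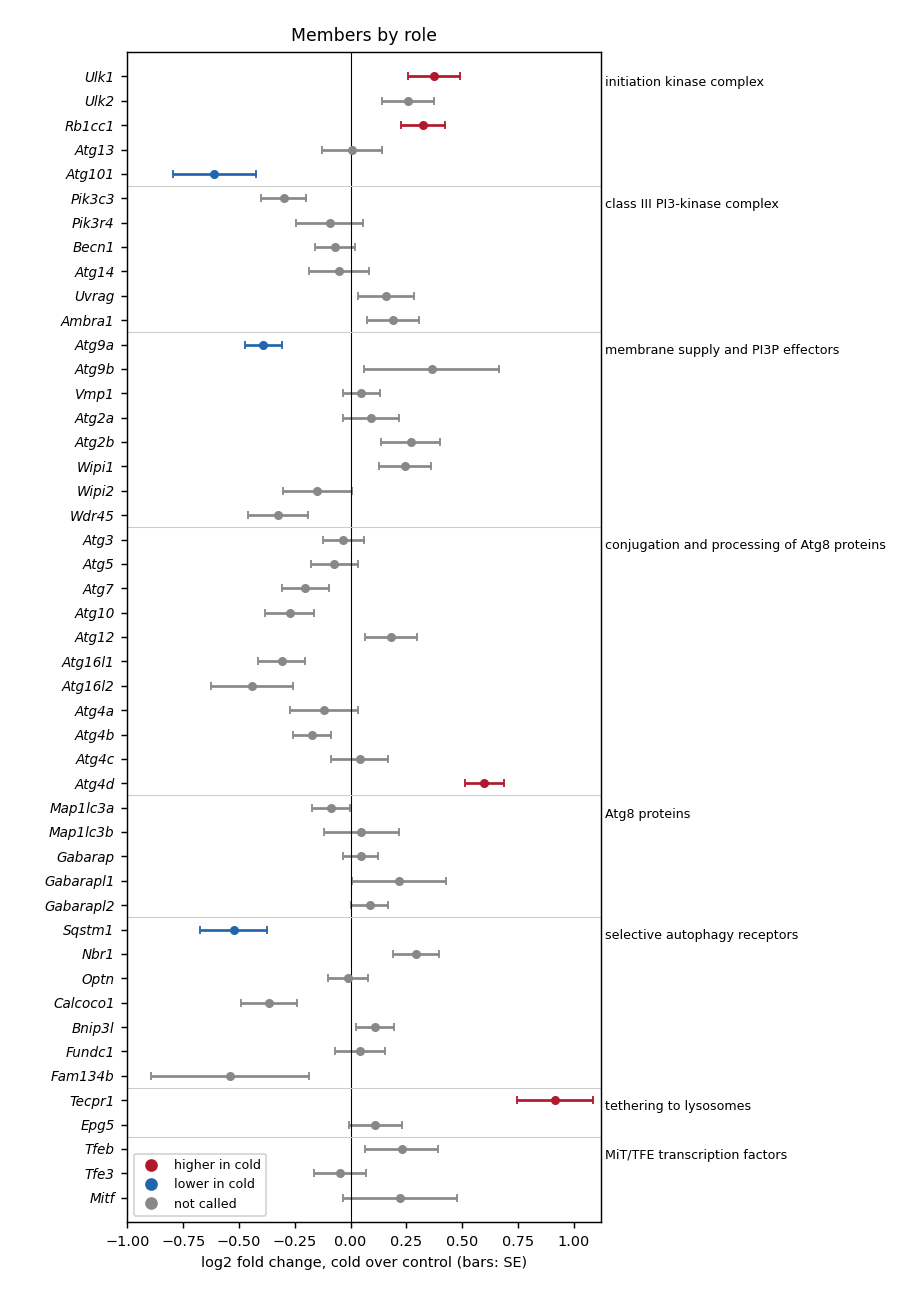
Log2 fold change of cold over control (horizontal axis) with its SE for each of the 47 members, grouped by role from initiation at the top to the transcription factors at the bottom. Red points were called higher, blue points lower and grey points not called; Tecpr1 at 0.91 and Atg101 at -0.61 are the extremes.

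The kinase complex that starts autophagy had 2 of its 5 members higher and 1 lower. The shares to set beside this and each later role group are 10.2% higher and 9.14% lower, over all genes tested. Ulk1, the kinase itself (chromosome 5, 111213508 to 111239100), held 89.3, 92.4, 83.1, 93.2 and 108 CPM in cold replicates 1 to 5, against 52.5, 72.6, 83.2, 77 and 74.5 CPM in control replicates 1 to 5. The groups overlapped only through cold replicate 3 and control replicate 3, and control replicate 1 was the lowest library. Ulk1 rose by 0.37 (SE 0.12, adjusted p = 0.0399). Rb1cc1 encodes FIP200, the scaffold of the complex (chromosome 1, 6204743 to 6266185). It held 84.7, 92.3, 88.5, 83.6 and 109.8 CPM in cold libraries, against 84.6, 68.6, 75.4, 72.4 and 65.6 CPM in control libraries. Cold replicate 5 was the highest, and control replicate 1 reached the lower cold libraries. Rb1cc1 rose by 0.32 (SE 0.10, adjusted p = 0.0344).

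Atg101, a small partner of ATG13 in the same complex (chromosome 15, 101114732 to 101121365), went the other way. It held 42.8, 40.4, 37.3, 42 and 47.3 CPM in cold libraries, against 47.5, 104, 56.1, 51 and 61.1 CPM in control libraries. The groups did not overlap, but control replicate 2 was far above the other 4 controls. Atg101 fell by 0.61 (SE 0.19, adjusted p = 0.035), and by 0.37 without control replicate 2 (adjusted p = 0.0203). Ulk2, the second kinase, was at 0.26 (SE 0.11, adjusted p = 0.134) and Atg13, the adaptor, at 0.00672 (SE 0.14). Over these 5 genes the estimates ran from -0.61 to 0.37.

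These 3 calls lay close to the threshold. For Ulk1 the adjusted p was 0.0508 to 0.0819 when cold replicate 1, 2, 4 or 5 or control replicate 1, 4 or 5 was left out, with log2 fold changes of 0.28 to 0.40 over those fits. For Rb1cc1 it was 0.0553 to 0.0876 without cold replicate 2, 3 or 5 or control replicate 2, 3, 4 or 5, with log2 fold changes of 0.25 to 0.34. For Atg101 it was 0.0559 to 0.086 without cold replicate 1, 2, 3 or 4 or control replicate 5. With both of control replicate 2 and cold replicate 5 removed, Ulk1 was at 0.31 (adjusted p = 0.077) and Rb1cc1 at 0.23 (adjusted p = 0.0864).

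**Figure D2:**
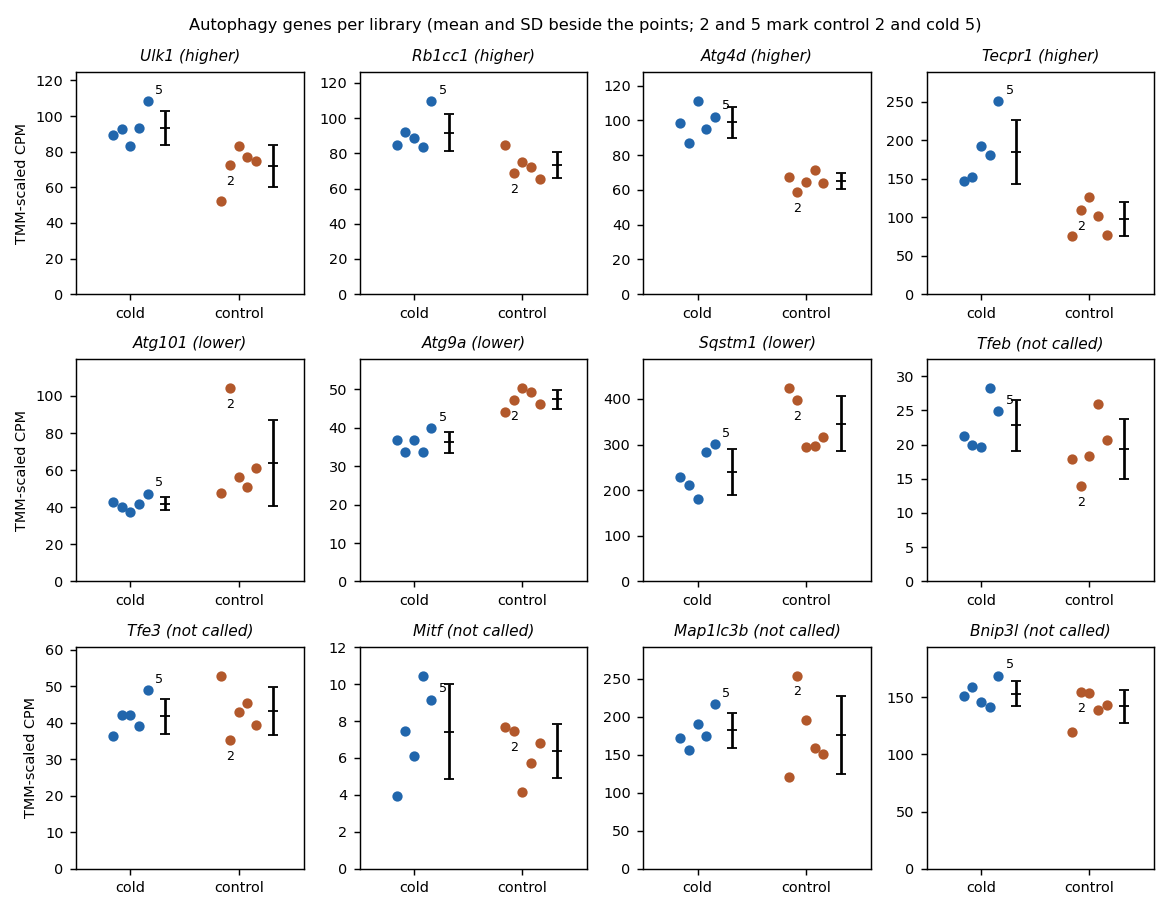
Normalised counts (CPM, vertical axes from 0) of 12 members in each library, cold on the left and control on the right, with mean and SD beside the points; the digits mark cold replicate 5 and control replicate 2. Cold and control points are apart for Atg4d, Tecpr1 and Atg9a, and barely so for Atg101 (47.3 CPM in cold replicate 5, 47.5 CPM in control replicate 1). They overlap in the other 8 panels.

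The lipid kinase complex that makes PI3P had no called member (0 of 6) with edgeR, where 1 of the 6 had an unadjusted p under 0.05. DESeq2 called 0 and limma-voom called 1. That gene was Pik3c3, the catalytic subunit VPS34, at 23.3 ± 2.49 CPM in cold and 28.7 ± 1.89 CPM in control libraries (log2 fold change -0.30, SE 0.10, adjusted p = 0.0537). It was at -0.36 without cold replicate 5 (adjusted p = 0.021), -0.31 with limma-voom (adjusted p = 0.0479) and -0.31 with upper quartile scaling (adjusted p = 0.0396), and its adjusted p ran from 0.021 to 0.128 over the 20 alternatives. Becn1, the regulatory subunit Beclin 1, was at -0.069 (95% interval -0.26 to 0.12) and Atg14, which directs the complex to autophagosomes, at -0.053 (-0.35 to 0.24). Pik3r4, the VPS15 subunit, was at -0.094, Uvrag, the subunit of a second form of the complex, at 0.16, and Ambra1, a regulator of Beclin 1, at 0.19. Their adjusted p lay between 0.276 and 0.815.

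Among 8 genes that supply membrane or read PI3P, 1 fell. Atg9a, a lipid scramblase on the vesicles that seed the membrane (chromosome 1, 75177435 to 75188584), held 36.9, 33.7, 36.8, 33.6 and 40.0 CPM in cold libraries, against 44.1, 47.3, 50.3, 49.4 and 46.2 CPM in control libraries. The highest cold library lay below the lowest control, and neither group had a library far from the rest. Atg9a fell by 0.39 (SE 0.082, adjusted p = 0.00565), and by 0.37 to 0.43 with any 1 library left out. Its paralog Atg9b was at 11.2 ± 1.8 CPM in cold and 8.8 ± 4.21 CPM in control libraries, with 2.55 CPM in control replicate 2. Its log2 fold change was 0.36 (SE 0.30, adjusted p = 0.428), and 0.12 without that library. Atg9b overlaps Nos3 on the opposite strand by 294 bases of gene span, and Nos3 fell by 0.50.

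The other members of this step were not called. Wipi1, a PI3P reader, was at 14.7 ± 0.827 CPM in cold and 12.3 ± 1.38 CPM in control libraries, for a log2 difference of 0.24 (SE 0.12, adjusted p = 0.157). All 5 cold libraries were above every control, but the lowest cold library, at 13.79 CPM, barely cleared the highest control, at 13.73 CPM. Wipi2, the PI3P reader that recruits the conjugation machinery, was at -0.15, and at -0.00527 without control replicate 2. Wdr45 (WIPI4) was at -0.33 (adjusted p = 0.109), and at -0.42 without control replicate 1 (adjusted p = 0.0292; 0.0292 to 0.237 over the alternatives). The lipid transfer genes Atg2a and Atg2b were at 0.092 and 0.27, and Vmp1, a scramblase of the endoplasmic reticulum, at 0.048 (95% interval -0.13 to 0.23).

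Of 11 genes that process and conjugate Atg8 proteins, 1 rose. Atg4d encodes a protease of the ATG4 family, which trims Atg8 proteins and removes them from membranes (chromosome 9, 21069729 to 21079281). It held 98.4, 87.2, 111, 95.1 and 102 CPM in cold libraries, against 67.2, 58.6, 64.8, 71.2 and 64 CPM in control libraries. Every cold library lay above every control, by a gap larger than the spread within the controls. Atg4d rose 1.52-fold (log2 fold change 0.60, SE 0.085, adjusted p = 0.00045), and by 0.55 to 0.64 with any 1 library left out. Its gene span overlaps Kri1 on the opposite strand by 1381 bases. Kri1 was at 8.56 CPM in cold and 10.1 CPM in control libraries and was not called. The 3 other ATG4 proteases, Atg4a, Atg4b and Atg4c, were at -0.12, -0.17 and 0.041, with adjusted p from 0.169 to 0.853.

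The 7 conjugation genes had no called member, with 3 lower at an unadjusted p under 0.05, 1 lower by DESeq2 and 0 by limma-voom. Atg7, the E1-like enzyme, held 50.8, 41.6, 51.3, 42.5 and 41.1 CPM in cold libraries, against 43.7, 49.4, 59.3, 53.1 and 56.6 CPM in control libraries, and the groups overlapped. Its log2 fold change was -0.20 (SE 0.11, adjusted p = 0.195). Atg3, the E2-like enzyme for Atg8 proteins, was at -0.032 (95% interval -0.23 to 0.16) and Atg10, the E2-like enzyme for ATG12, at -0.27 (adjusted p = 0.0976). Atg5 and Atg12, which are joined to each other, were at -0.074 and 0.18. Atg16l1, which places this pair on the membrane, was at -0.31 (adjusted p = 0.0548) and its paralog Atg16l2 at -0.44 (adjusted p = 0.107). Atg16l1 passed with DESeq2 (adjusted p = 0.0475), with upper quartile scaling (0.0407), without control replicate 1 (0.0149) and without cold replicate 5 (0.0282), within a range of 0.0149 to 0.13 over the 20 alternatives. Atg10 passed without control replicate 2, at -0.34 (adjusted p = 0.0358; 0.0358 to 0.191 over the alternatives).

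TFEB, TFE3 and MITF bind the E-box CACGTG, in lysosomal genes often within the longer GTCACGTG. RefSeq promoter windows of 300 bases (250 before a start site and 50 after it, build GRCm38.p6) were found for 38 of the 47 members. The hexamer CACGTG, which reads the same on both strands, stood in windows of 4 of these 38 genes, or 10.5%, against 12% of 8577 tested genes with a window. GTCACGTG, searched on both strands and always containing the hexamer, stood in 3 of 38, or 7.89%, against 5.08%. The 4 genes, shown because they are the members with an E-box there, were Atg14, Atg3, Atg5 and Atg7. Each run below gives 12 bases on either side, 5′ to 3′ in the sense of the gene, with each CACGTG in capitals.
Atg14, chr14:47568418-47568447, - strand: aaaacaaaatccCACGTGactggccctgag
Atg3, chr16:45158723-45158775, + strand: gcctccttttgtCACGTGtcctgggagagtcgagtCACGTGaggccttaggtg
Atg5, chr10:44268313-44268342, + strand: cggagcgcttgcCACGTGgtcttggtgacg
Atg7, chr6:114670952-114670981, + strand: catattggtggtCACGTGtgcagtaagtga
Atg3 holds the hexamer at 2 places, starting 94 and 71 bases before the start site, and the Atg14 hexamer straddles that site. In Atg14, Atg3 and Atg7 the hexamer is part of GTCACGTG on one strand. The 4 genes had log2 fold changes of -0.053 (Atg14), -0.032 (Atg3), -0.074 (Atg5) and -0.20 (Atg7), and edgeR called 0 of them. Of the 7 called members, 6 had a window, and 0 of these 6 held the hexamer. The FOXO motif GTAAACA and the ATF4 motif TGATGNAA, each searched on both strands, stood in 0 of the 38 genes, against 3.07% and 2.67% of tested genes. These windows were chosen for printing after the values were known, and a match is only a run of letters.

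The Atg8 proteins, which coat the growing membrane, took 5 of the first 6 ranks of the set per length in both groups, and edgeR called 0 of the 5. The count at an unadjusted p under 0.05 was also 0, as were the counts by DESeq2 and limma-voom. Gabarap ranked first per length in both groups, at 273 ± 19.9 CPM per kb in cold and 264 ± 19.1 CPM per kb in control libraries. Map1lc3a came second, at 199 ± 17.5 CPM per kb in cold and 212 ± 17.1 CPM per kb in control libraries. The log2 fold change was 0.045 for Gabarap (95% interval -0.12 to 0.21), -0.087 for Map1lc3a (-0.27 to 0.10) and 0.085 for Gabarapl2 (-0.094 to 0.26). Each of these 3 intervals ends short of 0.3 in either direction.

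Map1lc3b and Gabarapl1 were less certain. Map1lc3b, the LC3B gene, held 172, 157, 190.1, 175 and 217 CPM in cold libraries, against 121, 254, 196, 159 and 151 CPM in control libraries. Control replicates 1 and 2 were the lowest and the highest of all 10 libraries. Its log2 fold change was 0.048 (SE 0.17, adjusted p = 0.866), 0.21 without control replicate 2 and -0.065 without control replicate 1. Gabarapl1 held 182, 208, 226, 293 and 411 CPM in cold libraries, against 181, 319.5, 233, 210.4 and 190.1 CPM in control libraries. Cold replicate 5 was highest, followed by control replicate 2. The log2 fold change of Gabarapl1 was 0.22 (SE 0.21, adjusted p = 0.507) and -0.00234 without cold replicate 5.

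**Figure D3:**
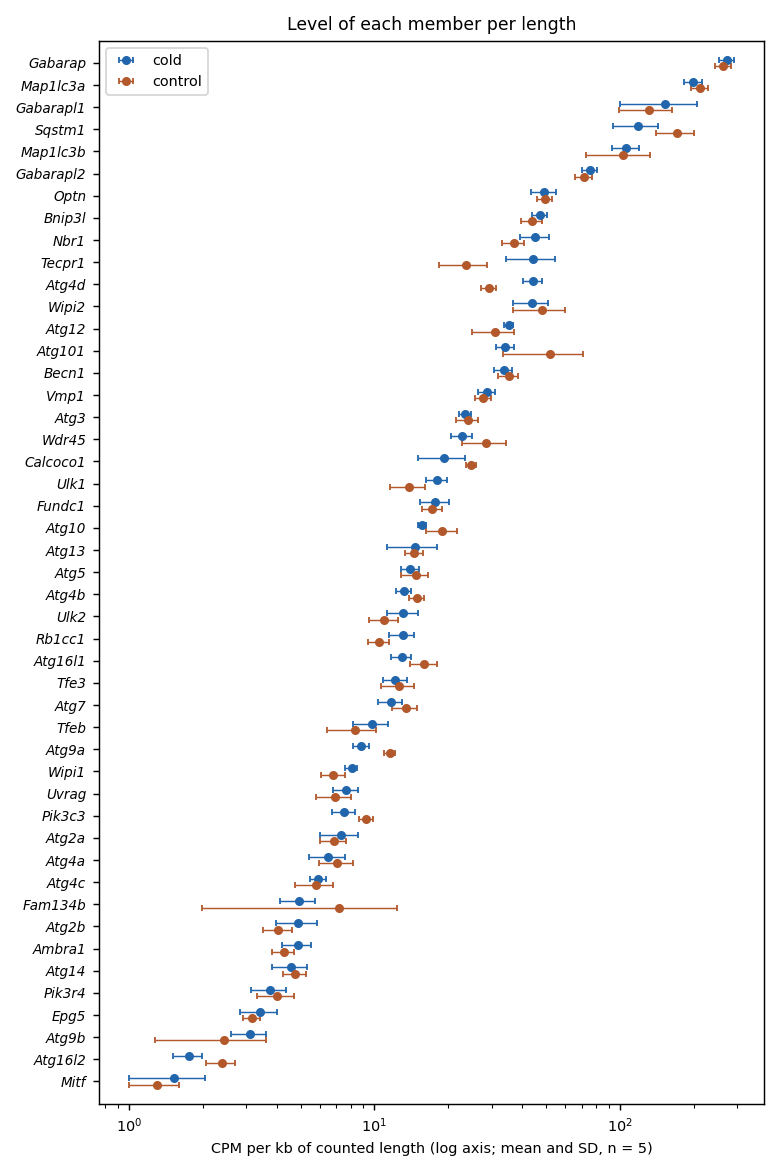
Mean level of each member per kb of counted length (log axis, CPM per kb) with SD over 5 libraries, cold in blue and control in orange, ordered by the cold level. Gabarap and Map1lc3a stand at the top in both groups and Mitf at the bottom, at 1.52 CPM per kb in cold and 1.3 CPM per kb in control libraries.

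Among 7 selective receptors, which link cargo to Atg8 proteins, 1 fell. Sqstm1 encodes p62, the receptor for ubiquitinated cargo (chromosome 11, 50013654 to 50024322). It held 228, 211, 180.1, 284 and 301 CPM in cold libraries, against 423, 398, 295, 297 and 317 CPM in control libraries. Only cold replicate 5 reached the range of the controls, and control replicates 1 and 2 were the highest. Sqstm1 fell by 0.52 (SE 0.15, adjusted p = 0.0271). The adjusted p was 0.0544 to 0.0712 without cold replicate 1, 2 or 3 or control replicate 1, and ran from 0.0105 to 0.0712 over the 20 alternatives. The protein p62 is itself degraded by autophagy, and protein was not measured.

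Nbr1, a receptor that partners with p62, pointed the other way without passing, at 219 ± 29 CPM in cold and 178 ± 18.5 CPM in control libraries (log2 fold change 0.29, SE 0.10, adjusted p = 0.0636). It passed without scaling factors (0.0198), without cold replicate 4 (0.0362) and without control replicate 1 (0.037), within a range of 0.0198 to 0.17. Calcoco1, a receptor for endoplasmic reticulum, held 43.8, 51.6, 47.2, 55.5 and 73.9 CPM in cold libraries, against 67.4, 68.3, 67.3, 73.6 and 73.1 CPM in control libraries. Cold replicate 5 lay above every control while the other 4 cold libraries lay below every control. Its log2 fold change stood at -0.37 (SE 0.12, adjusted p = 0.0561), and -0.50 without cold replicate 5 (adjusted p = 0.00229). The adjusted p of Calcoco1 was also under 0.05 with DESeq2 (0.0471), limma-voom (0.0377) and upper quartile scaling (0.0407), within a range of 0.00148 to 0.134 over the 20 alternatives.

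The mitophagy receptors showed no called difference. Bnip3l, which encodes NIX on the outer mitochondrial membrane, held 151, 159, 146, 141 and 169 CPM in cold libraries, against 119, 155, 154, 139 and 143 CPM in control libraries. The groups overlapped, and the log2 fold change was 0.11 (SE 0.087, 95% interval -0.078 to 0.30, adjusted p = 0.406). Fundc1, the other mitochondrial receptor, was at 0.042 (95% interval -0.20 to 0.28) and Optn, a receptor used in Parkin-dependent mitophagy, at -0.0107 (-0.20 to 0.18). Fam134b, a receptor for endoplasmic reticulum, was at -0.54 (SE 0.35, adjusted p = 0.308). That value rested on control replicate 2, with 50.2 CPM against 9.5 to 22.1 CPM in the other controls, and without it the estimate was -0.00639.

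Tecpr1, which binds PI3P and the ATG12-ATG5 conjugate and helps autophagosomes meet lysosomes (chromosome 5, 144956218 to 144984447), had the largest change of the set. It held 147, 153, 192, 180.1 and 251 CPM in cold libraries, against 75.8, 109.6, 126, 101 and 76.6 CPM in control libraries. The lowest cold library lay above the highest control, and cold replicate 5 was the highest. Tecpr1 rose 1.89-fold (log2 fold change 0.91, SE 0.17, adjusted p = 0.00267). With any 1 library left out it rose by 0.77 to 1.02. Per length it had rank 10 of 47 in cold, at 44.3 ± 9.99 CPM per kb, and rank 19 in control libraries, at 23.5 ± 5.22 CPM per kb. Epg5, a tether that acts with RAB7 on late endosomes, was at 0.11 (95% interval -0.15 to 0.37).

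Some markers of other cells moved between libraries as well. The shares to set beside their calls are 10.2% higher and 9.14% lower, over all genes tested. Summed markers of macrophages, cells rich in lysosomes, were at 97.8 to 390.0 CPM in cold and 134 to 271 CPM in control libraries, with 1 of 10 called higher and 1 lower. Skeletal muscle markers were at 38 to 419 CPM in cold and 40.8 to 139 CPM in control libraries, high in cold replicates 2 and 3. Of the 4 members that rose, Atg4d was highest in cold replicate 3 and the other 3 in cold replicate 5. Muscle markers were at 419 CPM in cold replicate 2, where Atg4d was at its lowest in cold, at 87.2 CPM. They were at 303 CPM in cold replicate 3, where Atg4d was at its highest, at 111 CPM. Summed macrophage markers were lowest in cold replicate 5, at 97.8 CPM, of which Lyz2, the largest term, made up 39.8 CPM. Endothelial markers were at 782 to 944 CPM in cold and 635 to 927 CPM in control libraries, with 3 of 8 called higher. These were Kdr, Vwf and Emcn. The others were not called, with Pecam1 and Cdh5 at 0.43 and 0.22 and Tie1, Tek and Cldn5 at -0.11, -0.15 and -0.90 (log2 fold changes). The part of macrophages, muscle or endothelial cells in these results was not tested.

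The MiT/TFE factors had no called member (0 of 3) with edgeR, with an unadjusted p under 0.05, with DESeq2 or with limma-voom. Tfeb (chromosome 17, 47873986 to 47929365) held 21.3, 19.9, 19.7, 28.2 and 24.9 CPM in cold libraries, against 17.9, 13.9, 18.4, 25.9 and 20.6 CPM in control libraries. The groups overlapped, with cold replicate 4 highest and control replicate 2 lowest. Its log2 fold change was 0.23 (SE 0.16, 95% interval -0.12 to 0.58, adjusted p = 0.35), and 0.12 without control replicate 2. Tfe3 (chromosome X, 7339787 to 7352328) held 36.4, 42.1, 42.2, 39 and 49 CPM in cold libraries, against 52.9, 35.3, 43, 45.3 and 39.4 CPM in control libraries, again overlapping. The log2 fold change of Tfe3 was -0.049 (SE 0.12, 95% interval -0.30 to 0.20).

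Mitf was the least abundant member per length. It held 3.95, 7.46, 6.13, 10.5 and 9.16 CPM in cold libraries, against 7.69, 7.45, 4.14, 5.73 and 6.81 CPM in control libraries, and cold replicate 1 was the lowest and cold replicate 4 the highest of all 10. Its log2 fold change was 0.22 (SE 0.26, 95% interval -0.33 to 0.77). Summed melanocyte markers, of the cell type in which Mitf is best known, stayed at 0 to 1.43 CPM in cold and 0.206 to 1.13 CPM in control libraries. Per length, Tfe3 was at 12.2 ± 1.38 CPM per kb in cold and 12.6 ± 1.94 CPM per kb in control libraries, and Tfeb at 9.77 ± 1.58 CPM per kb in cold and 8.3 ± 1.89 CPM per kb in control libraries. The intervals of Tfeb and Mitf reach 0.58 and 0.77, so rises up to those sizes are not excluded at this depth and spread.

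Members that are paralogs were compared with each other inside each library. For 8 pairs the log2 ratio of the 2 counts was compared between groups with a two-sided exact permutation test over the 10 libraries, whose smallest possible p is 0.00794. The ratio of Atg4c to Atg4d was at -2.38 ± 0.21 in cold and -1.83 ± 0.23 in control libraries (SD, n = 5 each, exact permutation p = 0.0159, adjusted over 8 pairs 0.127). That of Wipi1 to Wipi2 was at -3.50 ± 0.20 in cold and -3.88 ± 0.24 in control libraries (exact permutation p = 0.0397, adjusted 0.159). No pair (0 of 8) passed after adjustment. A single pair at the smallest possible p could not pass after adjustment over 8 pairs, so this does not show that paralogs changed alike. The difference in the log2 ratio of Ulk1 to Ulk2 was 0.13 (exact permutation p = 0.151), so the call of Ulk1 alone is not a shown difference from Ulk2. For Tfeb to Tfe3 it was 0.29 (exact permutation p = 0.159), and for Map1lc3a to Map1lc3b -0.17 (exact permutation p = 0.357).

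Genes around this machinery were counted by 4 further lists. Together they held 127 tested genes, of which 17 rose and 9 fell, or 13.4% and 7.09%, where 10.2% and 9.14% of all genes did, and their median log2 fold change was 0.030. Regulators of initiation and PI3P had 5 of 31 higher and 2 lower. They had 3 higher without control replicate 4 and 1 lower when any single cold library or control replicate 5 was left out. Over all genes tested, fits without 1 library gave 7.29 to 11.5% higher and 6.49 to 10.2% lower. Trp53inp2, which encodes DOR, a factor that shuttles between nucleus and autophagosome, was at 866 ± 24.2 CPM in cold and 558 ± 93.5 CPM in control libraries (log2 fold change 0.63, SE 0.11, adjusted p = 0.00169). Ei24, a reticulum protein needed for autophagy, rose by 0.71 (SE 0.14). Mtmr14, a PI3P phosphatase, fell by 1.14 (SE 0.27) and 3110043O21Rik, the mouse C9orf72 gene, by 0.95 (SE 0.28). The call of 3110043O21Rik had an adjusted p of 0.0533 to 0.0726 when any single cold library or control replicate 5 was left out, and control replicate 2 held 98.1 CPM of it. Without control replicate 2 it was at -0.54, and still called.

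Receptors and mitophagy genes outside the set had 2 of 22 higher and 2 lower, and 4 lower with DESeq2 or without control replicate 2 or cold replicate 5. For this list and the fusion genes below, the shares over all genes tested are 10.2% higher and 9.14% lower. Nipsnap1, a mitochondrial protein that can recruit receptors, rose by 0.75 (SE 0.15) and Sec62, a reticulum receptor, by 0.37 (SE 0.082). Pink1, the kinase that flags damaged mitochondria, was at 244 ± 58.8 CPM in cold and 355 ± 38.8 CPM in control libraries and fell by 0.54 (SE 0.14, adjusted p = 0.0167). Fundc2, a paralog of Fundc1, fell by 0.86 (SE 0.081, adjusted p = 2.47e-05), whereas Fundc1 was at 0.042. Of 29 genes for fusion with the lysosome 4 rose and 0 fell with edgeR, and 3 were lower at an unadjusted p under 0.05, with 0 by DESeq2 or limma-voom. Plekhm2, an adaptor that moves lysosomes along microtubules, rose 2.15-fold (log2 fold change 1.11, SE 0.19) and Vps33a, a subunit of the HOPS tether, by 0.44 (SE 0.088) on the log2 scale. Without cold replicate 5, control replicate 3 or control replicate 4, 1 fusion gene fell.

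Regulators of TFEB and mTORC1 at the lysosome had 6 of 45 higher and 5 lower, where 10.2% of all genes tested were higher and 9.14% lower. Rragc and Rragd encode the Rag GTPases that hold TFEB at the lysosome. Rragc rose by 0.48 (SE 0.092), and Rragd by 1.41 (SE 0.35) from a low level, at 9.89 ± 4.46 CPM in cold and 3.71 ± 1.79 CPM in control libraries. Prkab2, an AMPK subunit, fell by 0.68 (SE 0.15) and Nprl2, of the GATOR1 complex that restrains mTORC1, by 0.55 (SE 0.12). The count of higher genes was 3 without cold replicate 3. That of lower genes was 3 without cold replicate 2, 3 or 4 or control replicate 2, 3 or 4, 3 without scaling factors and 2 with the replicate block. In a separate list of 40 lysosomal genes known as TFEB targets, 14 rose and 2 fell, or 35% higher against 10.2% of all genes tested and 5% lower against 9.14%, with a median log2 fold change of 0.18. The list was drawn up with earlier results of these data known, so these shares are a description and not a test. Ctsz, a cathepsin, rose 5-fold to 1210.1 ± 125 CPM in cold libraries, against 242 ± 28.9 CPM in control libraries. Lamp1, a membrane protein of lysosomes, rose by 0.73 (SE 0.085), and the cholesterol carriers Npc2 and Npc1 fell by 0.73 and 0.50. Npc1 did not pass when any single cold library or control replicate 2, 3 or 4 was left out, and its adjusted p ran from 0.00322 to 0.0954 over the 20 alternatives. The count of higher lysosomal genes was 9 without cold replicate 4 or control replicate 1, where 7.43% and 10.5% of all genes tested were higher. It was 7 without cold replicate 3 or control replicate 4, where 7.29% and 8.16% were higher. The count of lower lysosomal genes was 1 when any single cold library or control replicate 3 or 4 was left out. Macrophages express many of these lysosomal genes too, and their part in these counts was not tested.

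Within the groups, 1 library of each was compared with the other 4 over the 47 members. The remaining libraries were not compared in this way. Cold replicate 5 lay above the median of the other 4 cold libraries for 39 members, or 83%, where this held for 50.2% of all genes tested, with a median distance of 0.22 (log2). Control replicate 2 lay above the median of the other 4 control libraries for 27 members, or 57.4%, against 49.6% of all genes tested, with 7 members over 0.5 away from that median in either direction on the log2 scale. These 7 were Atg101, Pik3r4, Atg9b, Wipi2, Map1lc3b, Gabarapl1 and Fam134b. Cold replicate 5 had 6 members that far from the median of its group's other 4 libraries. The share of all genes that far away was not computed for either library. Summed fibroblast markers were at 278 CPM in cold replicate 5 and 702 to 932 CPM in the other cold libraries, and their part in these results was not tested.

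**Figure D4:**
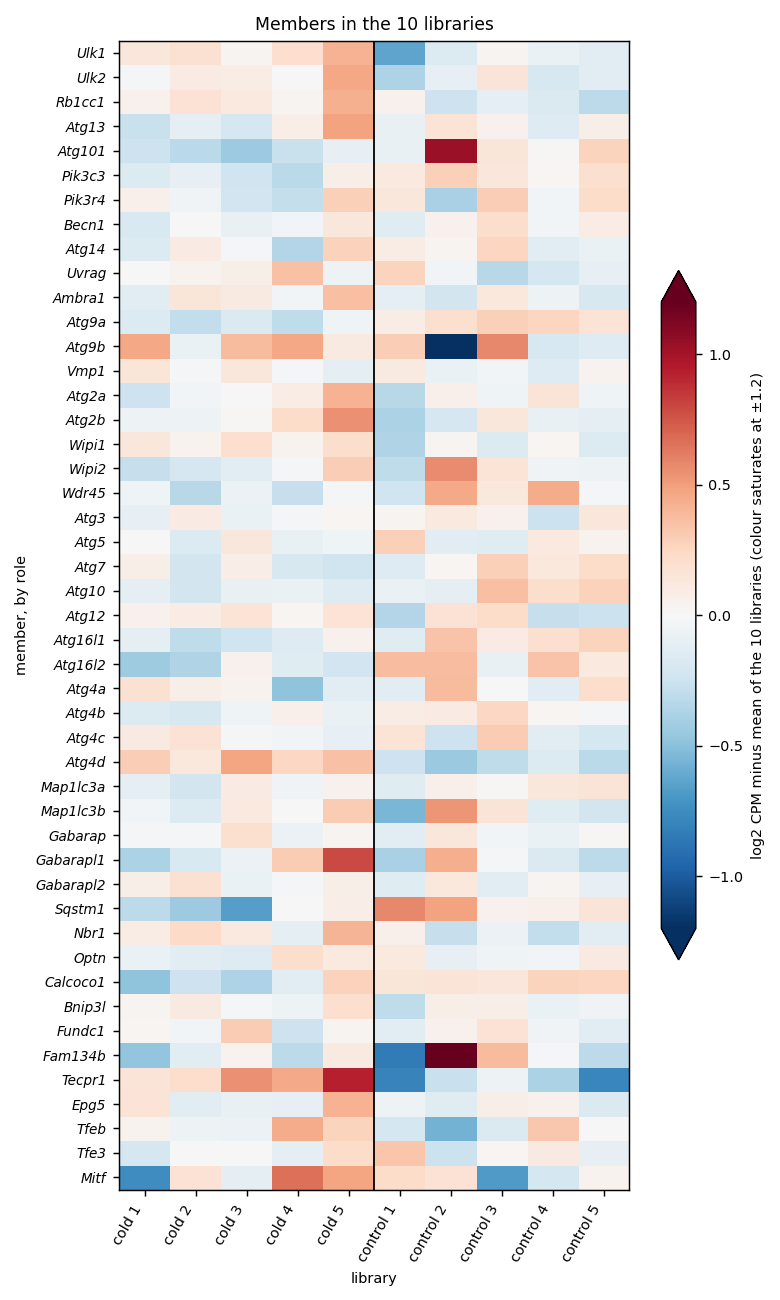
Log2 CPM of each member in each library minus its mean over the 10 libraries (colour, saturating at 1.2 either way), members in the order of the role groups and cold libraries on the left. Cold replicate 5 is mostly red, and control replicate 2 holds the deepest colours, at Fam134b, Atg101 and Atg9b.

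In the authors' deposited table of their own comparison, all 47 members were listed and 6 had an adjusted p under 0.05, 3 higher and 3 lower, where 19.8% of the 11241 genes in that table did. The authors' deposited table shared these 6 calls with the quasi-likelihood test, and Rb1cc1 was the 1 member called here whose adjusted p there was over 0.05, at 0.0585. Tecpr1 had a log2 fold change of 0.91 in the authors' deposited table, and Sqstm1 -0.53.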

How the data were processed

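Read counts per RefSeq gene model for 10 libraries, 1 per mouse, were deposited by the authors; per the file headers and values they are raw whole-number counts. The submitters' processing notes name STAR, edgeR and mm9. Versions, counting tool and strand setting were not stated there or in the labels, so reads of overlapping genes or near-identical copies cannot be told apart. The bases counted per gene, and the authors' comparison with log2 fold changes, log2 CPM and p-values, were also deposited. Control columns were matched to titles by replicate number, and 0 library columns were left unused.

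Cold was compared with control by edgeR 4.0.16 (R 4.3.3): TMM, filterByExpr, quasi-likelihood F test, two-sided, Benjamini-Hochberg over 11229 genes. The procedure was tried on counts simulated from this fit's own means and spread. That trial held no libraries standing apart, so it does not test the calls made here. SE is the fold change's size divided by the root of F. Alternatives used DESeq2 1.42.0, limma-voom (limma 3.58.1), other scalings and filters, a block, and fits without libraries. Paralog ratios used a prior count of 2. Depth sets the counting error, and intervals of fold changes include the spread between mice.

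Members, roles and lists were chosen with earlier results of these data known. Full values were given for called members and for Tfeb, Tfe3, Mitf, Map1lc3b and Bnip3l, and for Atg7, Gabarapl1 and Calcoco1, which were chosen after their values were seen; in each further list the 2 called genes with the smallest p in each direction were named. No 2 libraries of a group agreed within sampling noise (chi-square per degree of freedom 3.31 to 38.7). Promoter sequences are RefSeq's on GRCm38.p6 and were matched by symbol; no mm9 coordinate was converted.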

Additional observations from a re-analysis of the deposited data

Results flagged for a closer look

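A library was marked where its gap to the nearest of the other 4 libraries of its group took up more than 0.71 of the group's range, Dixon's 95% limit for 5 values. Over 94 tests (47 members in 2 groups) 3 were marked, and chance marks about 1 in 20. Ulk2 was at 95.4 CPM in cold replicate 5, against 68.5 to 74 CPM in the other 4 cold libraries. Atg101 was at 104 CPM in control replicate 2, against 47.5 to 61.1 CPM in the other 4 control libraries. Atg3 was at 39.8 CPM in control replicate 4, against 48.6 to 52.2 CPM in the other 4 control libraries.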

How the results depend on the processing

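Leaving out 1 library gave 2 to 4 members higher and 1 to 6 lower, 12 to 20 further pathway genes higher and 6 to 10 lower. Over all genes tested these fits gave 7.29 to 11.5% higher and 6.49 to 10.2% lower. Members higher were 2 without cold replicate 2 or 5 or control replicate 4 or 5. In those fits 7.84%, 11.5%, 8.16% and 8.23% of all genes tested were higher, in that order. Members lower were 1 without cold replicate 1, 2 or 3, where 7.08%, 6.56% and 6.55% of all genes tested were lower. Members lower were 6 without cold replicate 5, where 9.91% of all genes tested were lower. Without control replicate 2 and cold replicate 5 together 2 members were higher and 7 lower, where 13.6% of all genes tested were higher and 11.7% lower. Members lower were also 6 with upper quartile scaling, 5 with DESeq2 and 5 with limma-voom. Over all genes tested 9.71%, 8.74% and 8.98% were lower there. In those 3 fits the 7 members called here kept their calls; the cause of these moves was not tested. The other counts over all members, and those over the 4 pathway lists together, stayed within 1.5 times. For single lists this did not hold. Lower regulators of TFEB and mTORC1 were 2 with the replicate block and 3 without scaling factors, against 5. Lower lysosomal targets were 1 with the block, without scaling factors or with limma-voom, against 2. Lower initiation regulators were 1 with limma-voom, against 2, and lower fusion genes 1 with upper quartile scaling, against 0. Members past the threshold in fewer than all fits were Ulk1 (12 of 20), Rb1cc1 (11), Atg101 (15) and Sqstm1 (16). Signs changed only for members and pairs that were not called. Their ranges with 1 library left out were Atg13 (-0.14 to 0.071), Atg14 (-0.14 to 0.0197), Atg2a (-0.0152 to 0.16), Atg4c (-0.0154 to 0.13), Map1lc3b (-0.065 to 0.21), Gabarap (-0.00025 to 0.082), Gabarapl1 (-0.00234 to 0.37), Optn (-0.068 to 0.0252), Fundc1 (-0.038 to 0.10), Tfe3 (-0.12 to 0.0287), Atg4a/Atg4b (-0.0268 to 0.19), Gabarapl1/Gabarapl2 (-0.070 to 0.22). In the other settings, with upper quartile scaling Atg13 was at -0.00454; with limma-voom Atg13 was at -0.0189; with the replicate block Atg13 was at -0.0116; without control replicate 2 and cold replicate 5 together Atg13 was at -0.10, Epg5 was at -0.019; without scaling factors Atg3 was at 0.00333, Optn was at 0.024. Same-numbered mice were not paired by the labels, and their correlations of deviations ran from -0.25 to 0.19, over 0.1 for 2 of 5 numbers. With the replicate block 3 members were higher and 4 lower: Rb1cc1 was lost (adjusted p = 0.0851) and Calcoco1 gained (0.0396). In that fit 8.74% of all genes tested were higher and 7.2% lower. The fewest reads per library were those of Atg16l2 (18 to 33), Mitf (18 to 66) and Atg9b (13 to 84), where counting error weighs most.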
